A study of Mus musculus with 36 samples.

Results

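Withdrawal of leukemia inhibitory factor (LIF) from mouse embryonic stem cells for 72 h was described from 6 bulk RNA libraries of the 36 in the series, chosen by their group labels and count columns. The 3 ND libraries, labelled normal differentiation, came from cultures without LIF, and the 3 NS libraries, labelled normal stemness, came from cultures that kept it. Both groups were of 1 line, FUCCI embryonic stem cells of 129/sv strain with transgenic fluorescent indicators of the cell cycle, so that no other line stands behind the results. Both were first grown with LIF for about 18 h to about 24% confluence, in a medium with 15% serum and LIF at 1000 U/mL, and neither received a toxicant. RNA was extracted with Trizol and made into Lexogen 3' QuantSeq libraries, which read the 3' ends of transcripts. The labels call the 3 replicates of a group biological experiments and give no culture dates. Replicate number served as a block, so that ND replicate 1 was compared with NS replicate 1, and likewise for 2 and 3. Library totals were 4799398, 5726674 and 6811150 counts in ND, against 3029979, 4042359 and 4624049 counts in NS.

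LIF binds a receptor made of Lifr and gp130 (Il6st), which activates Jak kinases and the transcription factor Stat3. In mouse embryonic stem cells Stat3 sustains genes of the naive pluripotent state, and cells without LIF move toward a formative state that is competent to respond to germ-layer signals. Nodal, FGF, BMP and Wnt ligands act on that passage, and metabolism, chromatin and cell adhesion are remodelled along it. The naive pluripotency genes served as the check of the labels: 18 of 19 tested members fell, where 5.21% of all tested genes did, and the gene lists below describe what changed outside them. In RNA from whole cultures, fewer cells of a type and less RNA per cell cannot be told apart.

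Of 21516 genes in the table, 11717 passed the filter on low counts and were tested with edgeR's quasi-likelihood test, paired by replicate, with Benjamini-Hochberg adjustment over all of them. A gene is said to have risen or fallen where its adjusted p was under 0.05. In ND 628 genes rose (5.36% of those tested) and 611 fell (5.21%), together 10.6%. The counts of each gene list below are to be read against these shares. Fold changes are log2 of ND over NS, and levels are CPM on TMM-scaled totals; an error after ± is the SE of the fitted fold change. The median log2 fold change over all tested genes was 0.04. All 3 pairs differed the same way at 1230 of the 1239 called genes, against 47.6% of all tested genes. The 3 ND and 3 NS libraries did not overlap at 1012 of the called genes, against 24.8% of all tested genes. Since the calls rest on these same differences, both figures describe the called genes and lend the calls no support.

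The NS libraries lay further apart than the ND libraries, and pair 1 showed the smallest differences. Among genes called higher the median log2 difference was 0.75 in pair 1, 0.98 in pair 2 and 1.19 in pair 3. Among genes called lower it was -0.64, -0.98 and -0.95. The NS libraries lay over 4-fold apart at 689 tested genes, against 112 for the ND libraries. With pair 1 left out, 1168 genes rose and 1236 fell. With pair 2 left out 32 rose and 63 fell, and with pair 3 left out 95 rose and 144 fell. A fit to 2 pairs leaves 1 residual degree of freedom. In all 3 of these smaller fits 24 of the genes that rose and 58 of those that fell were called again, and each of these 82 was also called after the correction for transcript length and GC content given next. In the paragraphs below, a call is said to depend on a pair where it was lost without that pair. A call said to be lost without pair 2 may also have been lost without another pair. Without pair 3, for example, Sox4 (adjusted p = 0.296), Tet1 (0.138) and Kdm6a (0.0689) were lost as well. Id3 (0.0321) and Acvr2b (0.0304) were still called without pair 3.

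Transcript length and GC content moved with the comparison. The geometric mean transcript length weighted by counts was 2686, 2786 and 2618 nucleotides (nt) in ND, against 2517, 2616 and 2387 nt in NS. Each ND library exceeded the NS library of its own number. Genes that rose had a median length of 4872 nt and a median GC content of 45.7%, genes that fell 2193 nt and 52.9%, and all tested genes 3383 nt and 50%. In the decile of genes with the shortest transcripts 0.774% rose and 13.8% fell, and in the decile with the longest 14.4% rose and 2.24% fell. With offsets for length and GC content fitted in each library, 370 genes rose and 735 fell, which put the share of rises among calls at 33.5%, against 50.7% without offsets. Of the original calls 302 rises and 452 falls were made again. The part of length in the differences was not tested further. For the genes named below, calls lost with the offsets are stated.

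**Figure D1:**
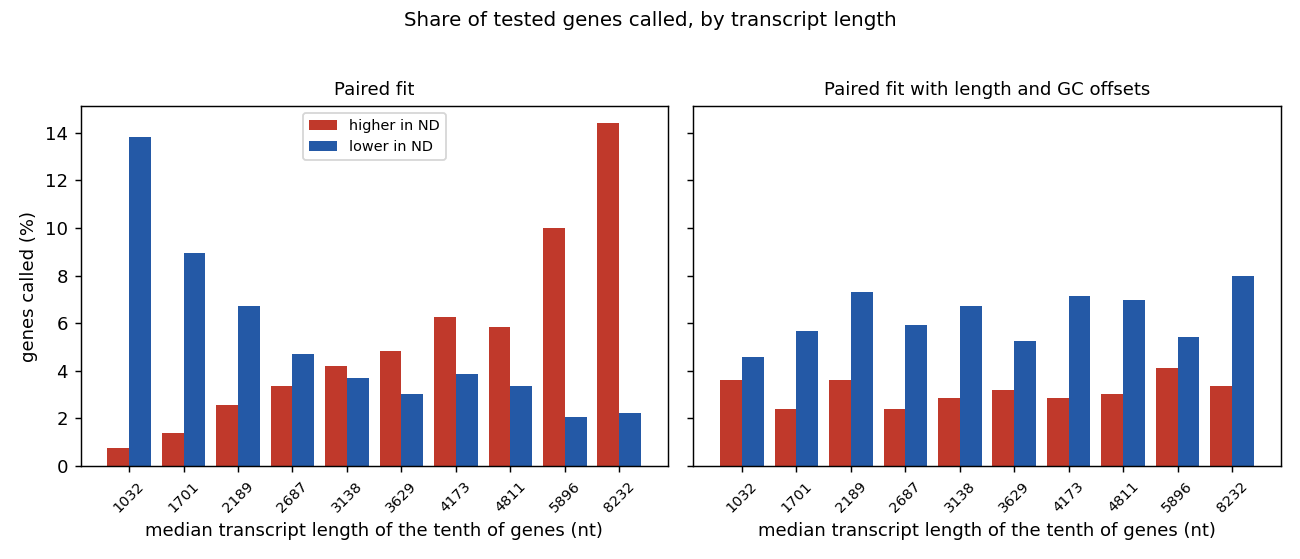
Share of tested genes called higher (red) or lower (blue) in ND, in percent, by deciles of transcript length (median of each in nt), in the paired fit (left) and with length and GC offsets (right). Without offsets the shortest decile had 13.8% falls and the longest 14.4% rises, and with offsets these shares were 4.56% and 3.36%.

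The LIF branch itself changed at its feedback and kinase genes, while its receptor genes did not pass the test. Socs3, the feedback inhibitor of gp130 signalling, had 26.6, 25.7 and 34.5 CPM in ND, against 234, 165 and 185 CPM in NS (-2.74 ± 0.19 on the log2 scale, adjusted p = 3.88e-08). Every ND library lay far below every NS library, and this was the smallest p of all tested genes. Bcl3, a nuclear IkB protein, had 9.72, 6.83 and 7.63 CPM in ND, against 42.4, 43.5 and 22.6 CPM in NS (-2.12 ± 0.29 on the log2 scale, adjusted p = 0.000199). Pim1, a serine/threonine kinase, had 106, 97.2 and 146 CPM in ND, against 188, 386 and 379 CPM in NS (-1.41 ± 0.19 on the log2 scale, adjusted p = 0.000333), and its relative Pim3 also fell (-0.98 ± 0.15, adjusted p = 0.000578). The ND and NS libraries of these genes did not overlap, and their calls were made in each fit with a pair left out and with the offsets. Stat3 fell (-0.52 ± 0.15, adjusted p = 0.0346), as did the AP-1 gene Junb (-1 ± 0.24, adjusted p = 0.0126), and neither was called without pair 2 or without pair 3. Socs2, a suppressor of cytokine and growth hormone signalling, rose (0.76 ± 0.17, adjusted p = 0.00944), a call that depended on pairs 2 and 3 (adjusted p = 0.195 without pair 2 and 0.0892 without pair 3).

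The receptor chains did not pass the test. Lifr had 16.5, 27.2 and 27.2 CPM in the ND libraries and 21.5, 33.9 and 23.6 CPM in the NS libraries, and Il6st had 19.6, 25.2 and 27.1 CPM in the ND libraries and 30.8, 14.9 and 8.84 CPM in the NS libraries, so that the groups overlapped at both. Jak1 had a log2 fold change of -0.34 ± 0.16 SE (adjusted p = 0.167). Of the 27 tested members of the LIF and Stat3 list 1 rose, 6 fell and 20 did not pass, with a median log2 fold change of -0.16, against 0.04 over all tested genes. Egr1, an immediate early gene, ranged from 2.70 to 39.7 CPM among the NS libraries alone, with NS replicate 1 the highest.

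Promoter sequence is shown for Socs3 and for 2 members of the same list that did not pass, because all 3 hold the letters TTCNNNGAA, the palindrome that STAT factors bind. The windows run from 250 bases before to 50 after the RefSeq start on build GRCm38.p6, while the files use mm9, and capitals mark the match. The Socs3 window is chr11:117969317-117969616, minus strand, that of Bcl6 chr16:23988803-23989102, minus strand, and that of Cish chr9:107296409-107296708, plus strand. 
Socs3: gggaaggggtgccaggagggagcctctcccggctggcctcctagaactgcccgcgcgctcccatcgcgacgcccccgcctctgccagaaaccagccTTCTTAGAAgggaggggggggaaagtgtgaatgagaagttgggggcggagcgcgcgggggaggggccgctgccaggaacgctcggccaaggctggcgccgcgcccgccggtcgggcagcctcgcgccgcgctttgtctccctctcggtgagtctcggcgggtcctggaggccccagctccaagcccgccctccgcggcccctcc
Bcl6: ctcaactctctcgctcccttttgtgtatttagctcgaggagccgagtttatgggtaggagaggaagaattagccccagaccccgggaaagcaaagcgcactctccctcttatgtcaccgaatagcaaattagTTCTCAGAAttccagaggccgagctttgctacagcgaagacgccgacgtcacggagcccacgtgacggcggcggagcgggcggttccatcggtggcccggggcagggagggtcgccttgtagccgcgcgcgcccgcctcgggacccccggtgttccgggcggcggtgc
Cish: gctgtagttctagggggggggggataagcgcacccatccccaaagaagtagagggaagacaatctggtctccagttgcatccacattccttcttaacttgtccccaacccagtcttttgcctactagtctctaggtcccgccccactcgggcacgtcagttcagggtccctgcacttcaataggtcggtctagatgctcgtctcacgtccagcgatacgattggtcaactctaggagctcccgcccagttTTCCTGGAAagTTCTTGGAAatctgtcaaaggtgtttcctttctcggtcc
The Socs3 match, TTCTTAGAA, begins 154 bases before the start, that of Bcl6, TTCTCAGAA, 118 bases before it, and Cish has 2 matches at or just after the start. Bcl6, a transcriptional repressor, had 4.86, 1.17 and 4.75 CPM in the ND libraries and 4.3, 2.53 and 4.18 CPM in the NS libraries (log2 fold change -0.16 ± 0.56, adjusted p = 0.889). Cish, a cytokine feedback inhibitor, had 15.4, 5.83 and 8.93 CPM in the ND libraries and 8.61, 7.84 and 14.2 CPM in the NS libraries (log2 fold change -0.1 ± 0.38, adjusted p = 0.898). Only the gene with the first window was called, and the other called list members that have a window, Bcl3, Pim1, Pim3, Junb and Stat3, held no such letters in their windows. Over all genes with a RefSeq window, read on both strands, the letters stood in 8.02% of 474 that fell, 7.62% of 499 that rose, 6.44% of 9391 tested and 8.47% of all 27025 in the table. These shares lie close together, and a match is a description of letters only.

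Each signalling list outside the LIF branch had 2 to 4 members called, where 10.6% of all tested genes were called. In the Nodal and activin list Skil, an inhibitor of Smad proteins that Nodal signalling itself induces, had 166, 211 and 135 CPM in ND, against 75.5, 64 and 45.4 CPM in NS (1.48 ± 0.18 on the log2 scale, adjusted p = 4.14e-05). The ND libraries all lay above the NS libraries, and the rise was called in each fit with a pair left out. The activin receptor gene Acvr2b rose (0.93 ± 0.17, adjusted p = 0.00151). Pcsk6, a convertase that cleaves the Nodal precursor, fell (-1.42 ± 0.31, adjusted p = 0.00693), and so did Gdf3, a ligand of the family (-0.72 ± 0.22, adjusted p = 0.04). Those 3 calls depended on pair 2 (adjusted p = 0.106 to 0.223 without it), and that of Gdf3 was lost without any one of the pairs. Pcsk6 was lost without pair 3 as well (adjusted p = 0.0639). Altogether 2 of 17 tested members rose and 2 fell, with a median log2 fold change of 0.29.

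In the FGF and ERK list Etv4, an ETS factor induced by FGF signalling, had 20.8, 24 and 17.7 CPM in ND, against 49, 86 and 104 CPM in NS (-1.89 ± 0.24 on the log2 scale, adjusted p = 0.000111). Its ND libraries lay below all NS libraries, in every fit with a pair left out. Il17rd, a membrane inhibitor of FGF receptor signalling, rose (0.89 ± 0.25, adjusted p = 0.0324) and was lost without pair 2 or 3 and with the offsets (adjusted p = 0.109). Of 20 tested members 1 rose and 1 fell, near the 5.36% and 5.21% of all tested genes. The other 18 did not pass, and the list median was 0.56. In the BMP list Id3, an inhibitor of bHLH factors and a classic BMP target, had 33.4, 53.7 and 34.8 CPM in ND, against 19.5, 14.2 and 8.11 CPM in NS (1.59 ± 0.29 on the log2 scale, adjusted p = 0.00189). ND libraries exceeded NS libraries by a clear gap, though the call was lost without pair 2 (adjusted p = 0.103). Its relative Id1 had 62.2, 107 and 121 CPM in the ND libraries and 59.3, 67.5 and 56 CPM in the NS libraries and missed the threshold (adjusted p = 0.0526). The receptor gene Bmpr1a rose (1.02 ± 0.24, adjusted p = 0.0102), a call lost without pair 2 or 3 and with the offsets (adjusted p = 0.0611). No BMP member of the 14 tested fell (median 0.46).

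Of 20 tested Wnt genes 3 rose and 1 fell (median 0.37). The receptor gene Fzd2 had 84.8, 107 and 92.1 CPM in ND, against 56.9, 38.7 and 18.9 CPM in NS (1.42 ± 0.27 on the log2 scale, adjusted p = 0.00598), with a gap between the groups. Tcf7, a nuclear partner of beta-catenin, rose (0.69 ± 0.18, adjusted p = 0.0213), as did the ligand gene Wnt4 (1.56 ± 0.48, adjusted p = 0.0407), and the ligand gene Wnt7b fell (-1.79 ± 0.53, adjusted p = 0.0424). None of the 4 was called without pair 2 (adjusted p = 0.0703 to 0.409), and Wnt4 missed the threshold with the offsets (adjusted p = 0.0527). Without pair 3 Tcf7, Wnt4 and Wnt7b were lost as well (adjusted p = 0.117 to 0.22), and Fzd2 was not (adjusted p = 0.0365). In the Notch list the receptor genes Notch2 (1.21 ± 0.31, adjusted p = 0.017) and Notch3 (1.14 ± 0.3, adjusted p = 0.0213) and the bHLH gene Hes6 (0.7 ± 0.21, adjusted p = 0.0385) rose among 16 tested, and none fell (median 0.19). These calls depended on pair 2 (adjusted p = 0.222 to 0.343), and both receptor calls were lost with the offsets. Notch2 and Hes6 were also lost without pair 3 (adjusted p = 0.19 to 0.311), and Notch3 was not. Hes6 had 80.1, 61.7 and 80 CPM in ND, against 73.5, 30.1 and 41 CPM in NS, so that NS replicate 1 lay within the ND range. In the Hippo list, whose kinases restrain the coactivator Yap, Cyr61, a secreted matrix protein induced by Yap, had 21.2, 27.5 and 17.6 CPM in ND, against 7.28, 3.29 and 9.09 CPM in NS (1.77 ± 0.37 on the log2 scale, adjusted p = 0.00651). The scaffold gene Amotl2 (0.92 ± 0.2, adjusted p = 0.00727) and the kinase gene Lats1 (1.43 ± 0.39, adjusted p = 0.0241) also rose. Again no call was made without pair 2 (adjusted p = 0.161 to 0.265), and Lats1 was lost with the offsets (adjusted p = 0.086). Amotl2 and Lats1 were also lost without pair 3 (adjusted p = 0.093 to 0.116), and Cyr61 was not. The list median was 0.85 over 15 tested members, of which none fell, and Ctgf, another Yap target, stayed above the threshold (adjusted p = 0.0678).

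**Figure D2:**
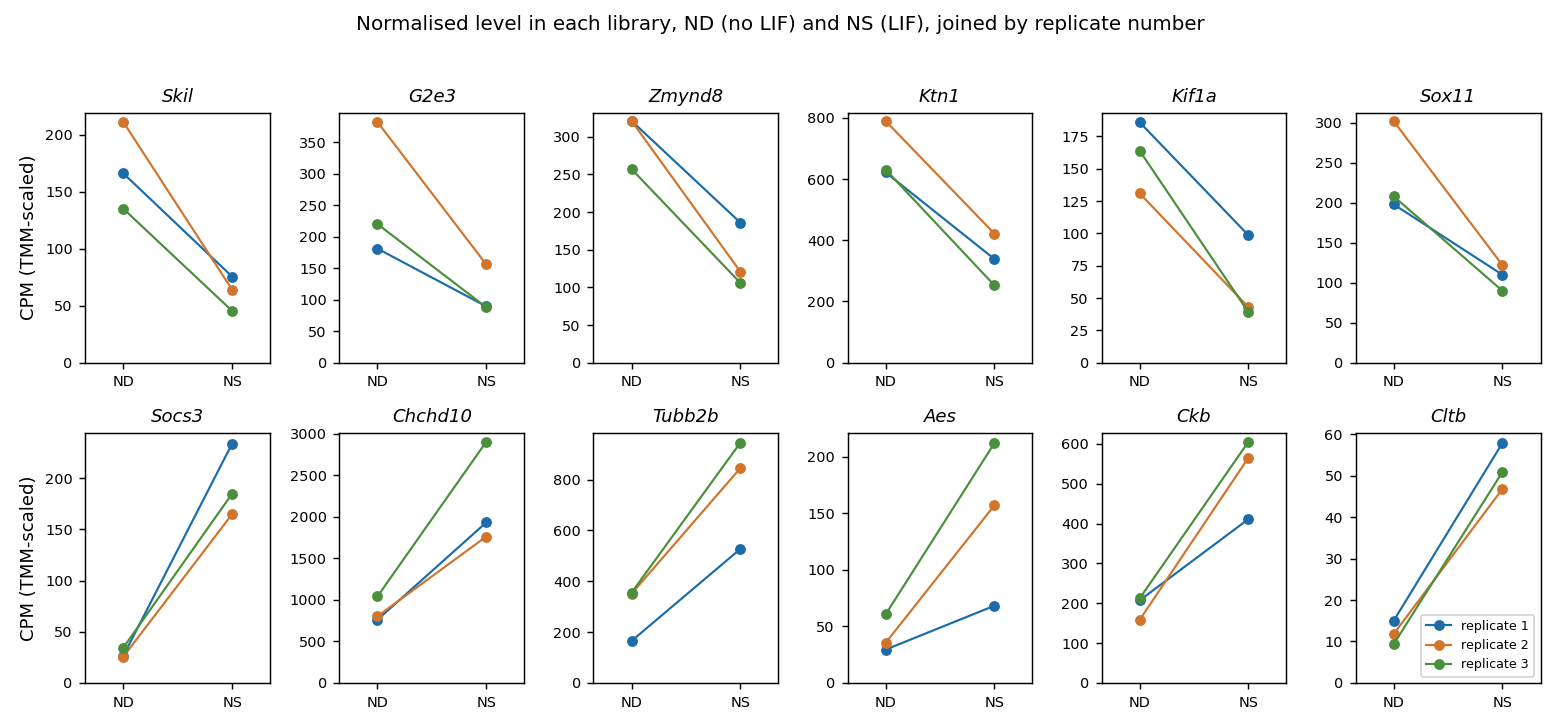
CPM on TMM-scaled totals in each library for the 6 rises (top) and 6 falls (bottom) with the smallest p by the naming rule, ND left and NS right, with lines joining libraries of the same replicate number. In each panel every line runs the same way, as for Socs3, with 25.7 to 34.5 CPM in ND and 165 to 234 CPM in NS.

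Outside the naive genes, pluripotency factors moved in both directions. In the core list 2 of 11 tested genes rose and 2 fell (median 0.19). Tdgf1, the Nodal co-receptor Cripto, had 736, 378 and 248 CPM in ND, against 1170, 950 and 653 CPM in NS (-1.13 ± 0.15 on the log2 scale, adjusted p = 0.000201). The groups overlapped across replicate numbers, while within every pair ND was lower, and the call was made in each fit with a pair left out. Trim28, a corepressor of retroelements, fell (-0.62 ± 0.13, adjusted p = 0.00588). Rif1, a regulator of replication timing (0.58 ± 0.14, adjusted p = 0.0159), and Epcam, an epithelial adhesion protein (0.64 ± 0.19, adjusted p = 0.0498), rose. Those 3 calls depended on pair 2 (adjusted p = 0.0925 to 0.432), and with the offsets Rif1 had an adjusted p of 0.649. All 3 were also lost without pair 3 (adjusted p = 0.0646 to 0.295). Epcam had 388, 367 and 377 CPM in ND, against 397, 164 and 217 CPM in NS. Its NS replicate 1 lay above every ND library, and DESeq2 did not call it (adjusted p = 0.053).

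The formative and primed epiblast list had a median log2 fold change of 1.22 over 17 tested genes, of which 5 rose and 1 fell. Zic2, a zinc finger factor of the primed epiblast, had 288, 316 and 183 CPM in ND, against 134, 37.7 and 29.7 CPM in NS (2.24 ± 0.44 on the log2 scale, adjusted p = 0.0491). Sox3, a SoxB1 factor, had 18.5, 20.5 and 17.6 CPM in ND, against 7.61, 4.55 and 3.68 CPM in NS (1.88 ± 0.35 on the log2 scale, adjusted p = 0.00216). At both genes the ND libraries lay above the NS libraries, with NS replicate 1 the highest of its group. Lin28b (1.3 ± 0.29, adjusted p = 0.00774), an inhibitor of let-7 processing, Lef1 (1.22 ± 0.32, adjusted p = 0.0193), a nuclear effector of Wnt, and Sox4 (0.67 ± 0.18, adjusted p = 0.0206) also rose, and Tcf15, a bHLH factor, fell (-0.65 ± 0.2, adjusted p = 0.0435). Without pair 1, 12 members rose and 1 fell, and without pair 2 or without pair 3, 2 rose and none fell. Zic2 was not called without pair 3 (adjusted p = 0.294), and the other 5 were not called without pair 2 (adjusted p = 0.0826 to 0.236). With the offsets Tcf15 was lost (adjusted p = 0.16). Summed over the list, levels were 2850 to 4200 CPM in ND and 710 to 2460 CPM in NS.

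The spread among NS libraries was widest at some of these genes. Otx2, a homeobox factor of the formative epiblast, had 547, 833 and 783 CPM in ND, against 484, 25.3 and 46.4 CPM in NS, and its log2 fold change of 3.17 ± 1.68 SE did not pass (adjusted p = 0.404). NS replicate 1 lay close to the ND libraries, and NS replicates 2 and 3 far below them. Sall2 had 40.6, 66 and 45.1 CPM in ND, against 30.8, 12.4 and 2.21 CPM in NS, and Foxd3, a forkhead repressor, had 15.4, 47.7 and 14.4 CPM in ND, against 31.8, 8.09 and 2.46 CPM in NS. Stra8, a retinoic acid target and entry factor of meiosis, ran the other way, with 4.08, 6.83 and 5.18 CPM in ND, against 8.61, 239 and 127 CPM in NS (adjusted p = 0.169). Dazl, a germ-cell RNA-binding protein, had 7.78, 17 and 12.8 CPM in ND, against 4.63, 45.5 and 52.1 CPM in NS. At these genes NS replicate 1 took the end nearest the ND libraries or beyond them, and none was called in the paired fit. Without pair 1 all 5 were called, with log2 fold changes of 4.51 for Otx2, 3.08 for Sall2, 2.53 for Foxd3, -4.9 for Stra8 and -1.74 for Dazl. In the fit to all 36 libraries with the replicate block Otx2 (2.38, adjusted p = 0.0376), Sall2 (2.06, adjusted p = 0.0137) and Stra8 (-4.61, adjusted p = 0.006) were called, and Foxd3 and Dazl were not. DESeq2 called Stra8 alone of the 5 (adjusted p = 0.00835), and Dazl was called with the offsets (adjusted p = 0.0232) and with the ND libraries thinned to the NS totals (adjusted p = 0.0138). With voom Stra8 and Dazl were called, and with no filter on low counts Sall2 and Dazl. Mycn, a MYC family factor, showed the same order with 108, 126 and 63.1 CPM in the ND libraries and 147, 43 and 17 CPM in the NS libraries, and was called without pair 1 (log2 fold change 1.68) and with no filter on low counts.

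**Figure D3:**
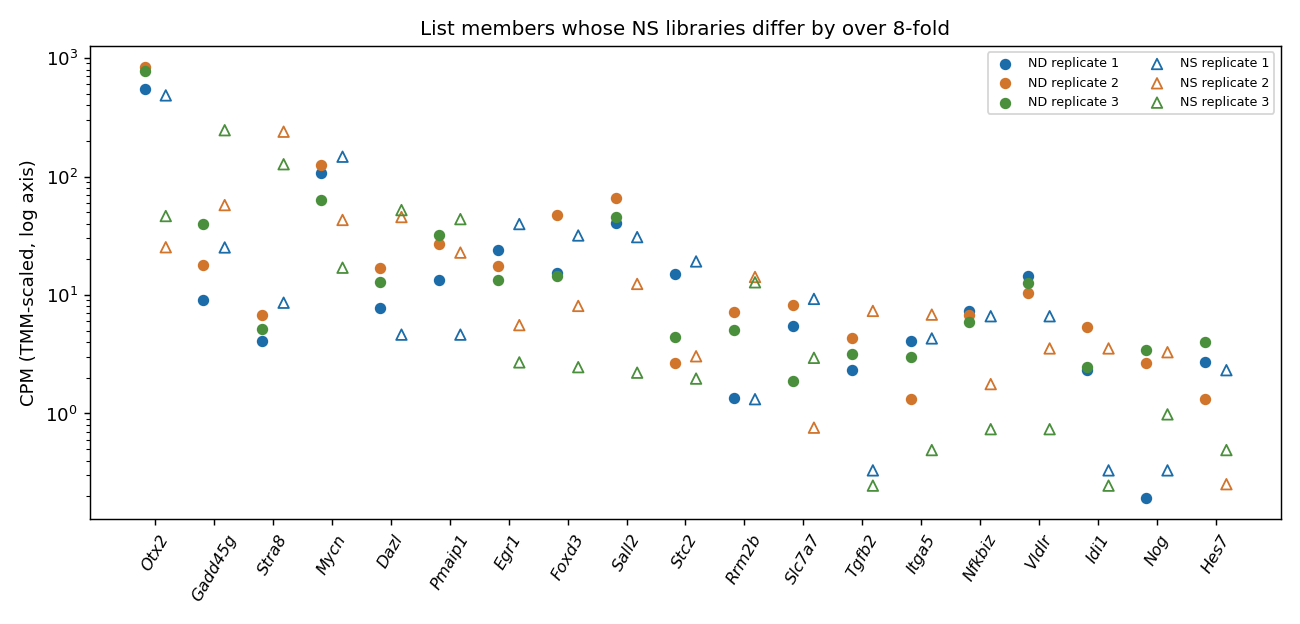
CPM on TMM-scaled totals, on a log axis, of list members whose 3 NS libraries differ by more than 8-fold, with ND libraries as filled circles on the left and NS libraries as open triangles on the right of each gene, coloured by replicate number. At Otx2 the ND libraries lie between 547 and 833 CPM, and the NS libraries at 484, 25.3 and 46.4 CPM.

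Markers of differentiated lineages were mostly too low to test. Of 22 primitive streak and mesendoderm genes 8 were tested, and Eomes, a T-box factor of mesendoderm and trophoblast, was the only one called, with 16.1, 12 and 4.61 CPM in ND, against 1.32, 1.77 and 0.491 CPM in NS (3.13 ± 0.52 on the log2 scale, adjusted p = 0.000875). It had the largest rise by the naming rule and was called in each fit with a pair left out. Mixl1, Gsc, Foxa2 and Sox17 did not pass the filter, and the summed level of the streak list was 43.6 to 63.8 CPM in ND, against 37 to 51 CPM in NS. Among 8 tested early neural genes Sox11, a SoxC factor, had 198, 302 and 208 CPM in ND, against 110, 122 and 89.9 CPM in NS (1.12 ± 0.16 on the log2 scale, adjusted p = 0.000262), and Nes, a neural intermediate filament, rose too (1.18 ± 0.32, adjusted p = 0.0328). The 3 others called fell, namely Stmn2, a tubulin-binding protein (-1.66 ± 0.24, adjusted p = 0.0028), Tubb3, a neuronal beta-tubulin (-1.4 ± 0.23, adjusted p = 0.000954), and Ncam1, an adhesion molecule (-0.9 ± 0.28, adjusted p = 0.0429). Calls of Sox11 and Stmn2 were made in each fit with a pair left out, and those of Nes, Tubb3 and Ncam1 were lost without pair 2 (adjusted p = 0.0671 to 0.411). Nes had 45.5, 39.7 and 33.5 CPM in ND, against 42.4, 13.2 and 8.35 CPM in NS, so that NS replicate 1 lay within the ND range. Neural determinants such as Pax6, Sox1 and Neurog2 did not pass the filter, and the summed level was 459 to 563 CPM in ND, against 562 to 701 CPM in NS.

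Trophoblast markers gave 1 rise, Eomes, and 1 fall among 9 tested. Tcfap2c, an AP-2 factor shared by trophoblast and naive cells, had 51.5, 31.7 and 60.6 CPM in ND, against 143, 173 and 142 CPM in NS (-1.71 ± 0.22 on the log2 scale, adjusted p = 0.000172), without overlap. The summed level was 243 to 418 CPM in ND, against 333 to 444 CPM in NS, and Cdx2 and Elf5 did not pass the filter. Of 9 tested extraembryonic endoderm markers only the endocytic receptor gene Lrp2 rose (1.41 ± 0.27, adjusted p = 0.00372; adjusted p = 0.135 without pair 2), while Gata6 had 3.69, 0.333 and 2.74 CPM in the ND libraries and 4.63, 7.08 and 6.14 CPM in the NS libraries (adjusted p = 0.125). That list summed to 859 to 1220 CPM in ND and 1050 to 1130 CPM in NS. Fibroblast and feeder markers, which would mark other cells in the cultures, summed to 78.2 to 84.2 CPM in ND and 61.4 to 131 CPM in NS. Of 6 tested, Col1a1 fell (-1.23 ± 0.29, adjusted p = 0.0118; adjusted p = 0.256 without pair 2), and Dcn, Postn and Lum did not pass the filter. The part of such cells in the differences was not tested.

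Germline genes split, with 2 of 19 tested rising and 2 falling. Tex101, a germ-cell surface protein, fell (-3.3 ± 0.86, adjusted p = 0.0194), as did the TFIID-related Taf7l (-1.55 ± 0.45, adjusted p = 0.0348). Tex101 had only 0.194, 0.333 and 0.432 CPM in ND, against 3.31, 2.53 and 4.42 CPM in NS. Its fold change thus rests on very few counts, and DESeq2 gave it no adjusted p. The cohesin gene Smc1b (0.6 ± 0.18, adjusted p = 0.0362) and the synaptonemal gene Sycp3 (0.7 ± 0.19, adjusted p = 0.0228) rose, but neither did with the offsets (adjusted p = 0.063 to 0.317). All 4 were lost without pair 2 or 3 (adjusted p = 0.134 to 0.227 without pair 2). Of 4 tested genes of the two-cell-like state none passed with edgeR or DESeq2, 1 had an unadjusted p under 0.05, and these genes have near-identical copies, so that counts are uncertain. In the retinoic acid and Hox list Crabp1, a cytosolic retinoic acid binding protein, had 46.5, 43 and 70.1 CPM in ND, against 82.8, 113 and 178 CPM in NS (-1.2 ± 0.18 on the log2 scale, adjusted p = 0.000429). Every ND library lay below every NS library, although the call was lost without pair 2 (adjusted p = 0.0536). The other 8 tested members did not pass, and 15 members, among them Hoxb1 and Cyp26a1, did not reach the test. Falls in this list numbered 8 in the fit to all 36 libraries with the replicate block (median -1.21), 5 without pair 1 (median -1.34), 5 with no filter on low counts and 0 without pair 2.

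Among chromatin regulators, 4 of 14 tested genes of the DNA methylation list fell (28.6%, against 5.21% of all tested genes) and none rose. That list leaves out the methyltransferase genes Dnmt3a and Dnmt3b, which stand in the formative list. Dnmt3b had 1450, 1420 and 930 CPM in ND, against 915, 177 and 278 CPM in NS (1.79 ± 0.65 on the log2 scale, adjusted p = 0.253). Dnmt3a had a log2 fold change of 0.39 ± 0.16 SE (adjusted p = 0.128). Both were higher in ND in every pair, and neither passed. Gadd45g, a growth arrest and DNA damage protein, had 9.14, 17.8 and 40 CPM in ND, against 25.2, 57.4 and 246 CPM in NS (-1.99 ± 0.23 on the log2 scale, adjusted p = 4.76e-05). The groups overlapped, since replicate 3 was the highest in both, and the fall appeared within each pair and in each fit with a pair left out. Dnmt3l, the catalytically inactive partner of de novo methyltransferases, had 162, 121 and 165 CPM in ND, against 312, 202 and 280 CPM in NS (-0.82 ± 0.15 on the log2 scale, adjusted p = 0.00209). The dioxygenase gene Tet1 fell less (-0.5 ± 0.15, adjusted p = 0.037), and Gadd45b fell (-1.62 ± 0.4, adjusted p = 0.0493) but not with the offsets (adjusted p = 0.131). Without pair 2, Dnmt3l, Tet1 and Gadd45b were not called (adjusted p = 0.0698 to 0.387). Of 24 tested Polycomb and histone demethylase genes only the H3K27 demethylase gene Kdm6a rose (0.94 ± 0.21, adjusted p = 0.00907), a call lost without pair 2 (adjusted p = 0.135) and with the offsets (adjusted p = 0.0641).

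Among 17 tested imprinted genes 3 rose and 2 fell. Kcnq1ot1, a paternally expressed noncoding RNA that runs antisense to Kcnq1, had 36.8, 130 and 46.6 CPM in ND, against 8.94, 50.8 and 20.1 CPM in NS (1.49 ± 0.22 on the log2 scale, adjusted p = 0.000382). Its groups overlapped across replicate numbers and ND was higher in every pair, and the strand used in counting is not given, so that reads of Kcnq1 cannot be told apart from it. Cdkn1c, the growth inhibitor p57 of the same imprinted cluster, had 56.4, 42.2 and 36 CPM in ND, against 82.1, 105 and 100 CPM in NS (-1.12 ± 0.2 on the log2 scale, adjusted p = 0.00202). Phlda2, also of that cluster, fell (-0.93 ± 0.2, adjusted p = 0.00647). The paternally expressed genes Impact (0.65 ± 0.18, adjusted p = 0.0298) and Sgce (1.22 ± 0.37, adjusted p = 0.0411) rose. Kcnq1ot1 was called in each fit with a pair left out and with the offsets, and the other 4 were lost without pair 2 (adjusted p = 0.103 to 0.201). However, Kcnq1ot1 was not called in the 6 libraries without the replicate block (adjusted p = 0.338). It was also lost in the fit to all 36 libraries with the block (adjusted p = 0.187). With the offsets Phlda2, Impact and Sgce missed the threshold (adjusted p = 0.0532 to 0.154). In the Lin28 and let-7 list Lin28b, Zcchc6, a uridylyltransferase of let-7 precursors (0.85 ± 0.23, adjusted p = 0.0215), and Trim71, an RNA-binding ubiquitin ligase (0.72 ± 0.19, adjusted p = 0.0197), rose among 13 tested and none fell (median 0.37). None was called without pair 2 (adjusted p = 0.134 to 0.291), and only Lin28b was called with the offsets.

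**Figure D4:**
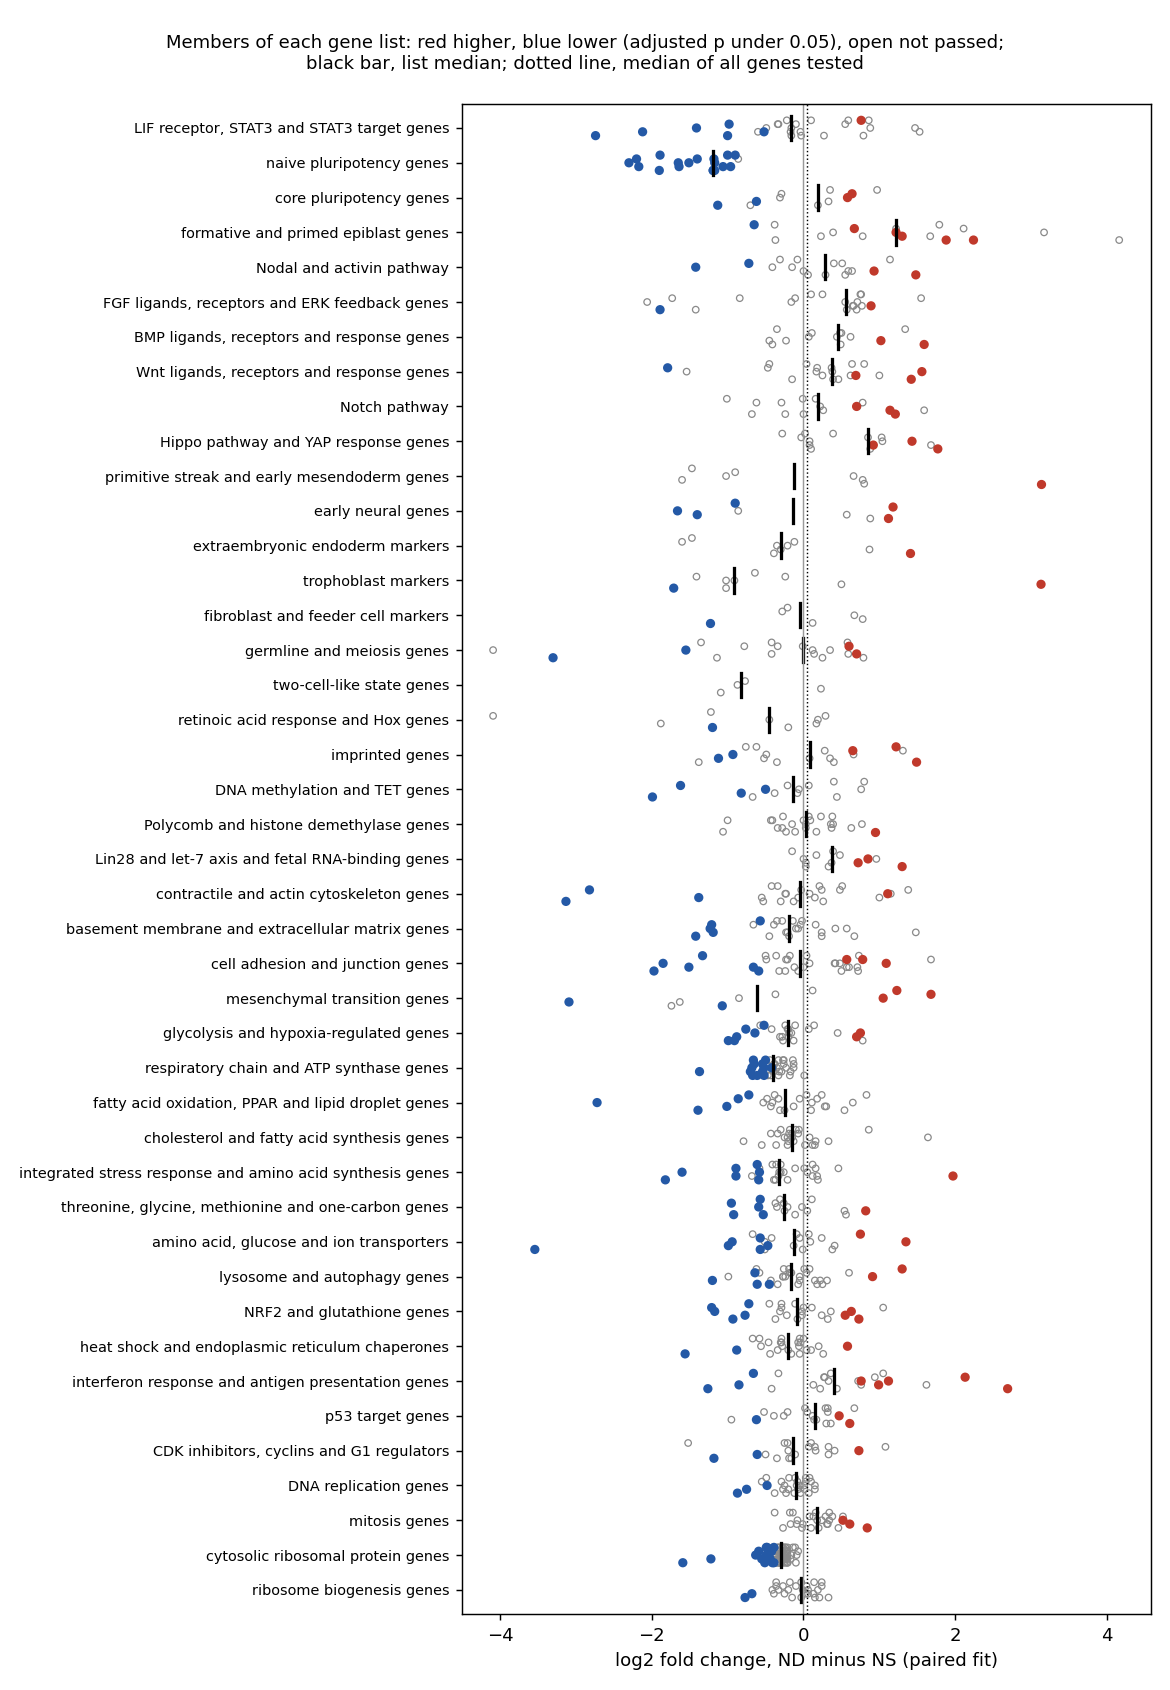
Log2 fold change, ND minus NS, of every tested member of 43 gene lists, with rises in red, falls in blue, members that did not pass as open circles, list medians as black bars and the median of all tested genes (0.04) as a dotted line. The naive list, with 18 of 19 falls, and the respiratory chain list, with 13 of 36 falls and none higher, lie to the left, and the formative list, with a median of 1.22, to the right.

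Surface and matrix genes changed in both directions. Among 32 tested adhesion and junction genes 3 rose and 6 fell (median -0.04). Gjb5, a connexin of gap junctions, fell (-1.51 ± 0.3, adjusted p = 0.0038). Icam1, a ligand of leukocyte integrins, had 36, 18.2 and 33.5 CPM in ND, against 61.6, 122 and 135 CPM in NS (-1.85 ± 0.33 on the log2 scale, adjusted p = 0.00943), and the integrin gene Itgb7 fell (-1.33 ± 0.35, adjusted p = 0.0211). Tjp1, the tight junction scaffold ZO-1, rose (0.78 ± 0.2, adjusted p = 0.0196), but not with the offsets (adjusted p = 0.117), and Icam1 also missed the threshold there (adjusted p = 0.0594). Gjb5, Itgb7 and Tjp1 were lost without pair 2 (adjusted p = 0.127 to 0.174), and Icam1 without pair 3 (adjusted p = 0.0936). Cdh1, or E-cadherin, had 750, 755 and 750 CPM in ND, against 755, 359 and 477 CPM in NS and passed narrowly (adjusted p = 0.0478). NS replicate 1 lay at the level of the ND libraries, and the rise was not called without pair 2, without pair 3 or with the offsets (adjusted p = 0.0746 with them).

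In the basement membrane and matrix list 5 of 25 tested genes fell (20%, against 5.21% of all tested genes) and none rose (median -0.19). Timp1, an inhibitor of matrix proteases, had 19.4, 10.5 and 11.9 CPM in ND, against 34.8, 35.4 and 38.1 CPM in NS (-1.42 ± 0.27 on the log2 scale, adjusted p = 0.00282). The laminin gene Lama1 (-1.23 ± 0.31, adjusted p = 0.0162), the basement membrane linker Nid1 (-1.21 ± 0.3, adjusted p = 0.0167), the secreted phosphoprotein Spp1 (-1.19 ± 0.27, adjusted p = 0.0114) and fibronectin, Fn1 (-0.57 ± 0.15, adjusted p = 0.0221), also fell. All 5 groups of libraries were separate, and all 5 calls were lost without pair 2 (adjusted p = 0.107 to 0.233). All but Timp1 were also lost without pair 3 (adjusted p = 0.0941 to 0.277). In the mesenchymal transition list the intermediate filament gene Vim had 133, 137 and 201 CPM in ND, against 221, 434 and 350 CPM in NS (-1.07 ± 0.18 on the log2 scale, adjusted p = 0.00135), and Mmp9, a matrix protease, fell (-3.09 ± 0.71, adjusted p = 0.00987). The fall of Mmp9 rests on few counts, 5, 2 and 5 in ND, against 11, 43 and 19 in NS. The epithelial splicing regulator Esrp1 (1.05 ± 0.24, adjusted p = 0.0112), the epithelial repressor Ovol2 (1.23 ± 0.34, adjusted p = 0.0278) and the hyaluronan receptor Cd44 (1.68 ± 0.46, adjusted p = 0.0257) rose. So 3 of 10 tested members rose and 2 fell, each call was lost without pair 2 (adjusted p = 0.101 to 0.226), and Cd44 missed the threshold with the offsets (adjusted p = 0.0547).

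Among 24 tested contractile and actin genes 1 rose and 3 fell. Myo1f, a class I myosin, had 0.778, 1 and 1.44 CPM in ND, against 2.32, 13.2 and 16 CPM in NS (-3.13 ± 0.56 on the log2 scale, adjusted p = 0.00175). Mylpf, a fast-muscle regulatory light chain, had 26.4, 20 and 20 CPM in ND, against 73.2, 255 and 186 CPM in NS (-2.82 ± 0.5 on the log2 scale, adjusted p = 0.0382), and the atrial light chain gene Myl4 fell (-1.38 ± 0.29, adjusted p = 0.00531). At Myo1f and Mylpf NS replicate 1 lay nearest to ND. The smooth-muscle calponin gene Cnn1 rose (1.11 ± 0.27, adjusted p = 0.0126), and Tpm1, a tropomyosin, did not pass (adjusted p = 0.0634). Myo1f, Myl4 and Cnn1 were lost without pair 2 (adjusted p = 0.0973 to 0.205), and Mylpf without pair 3 (adjusted p = 0.254) and with the offsets (adjusted p = 0.0825).

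Mitochondrial genes were lower in ND across many members. Chchd10, a protein of the mitochondrial intermembrane space, had 760, 801 and 1040 CPM in ND, against 1930, 1760 and 2900 CPM in NS (-1.32 ± 0.13 on the log2 scale, adjusted p = 9.4e-06). It had the second smallest p of all genes that fell, its groups were far apart, and the call was made in each fit with a pair left out. In the respiratory chain and ATP synthase list 13 of 36 tested genes fell (36.1%, against 5.21% of all tested genes) and none rose, with a median of -0.40. Uqcrc1, a core protein of complex III, had 253, 306 and 358 CPM in ND, against 485, 446 and 552 CPM in NS (-0.7 ± 0.15 on the log2 scale, adjusted p = 0.00507). Cox6a1, a subunit of complex IV, had 396, 391 and 511 CPM in ND, against 589, 653 and 834 CPM in NS (-0.67 ± 0.14 on the log2 scale, adjusted p = 0.00438). Atp5g1, a ring subunit of ATP synthase (-0.68 ± 0.15, adjusted p = 0.00794), Uqcrq (-0.65 ± 0.15, adjusted p = 0.00872) and Cox8a (-0.66 ± 0.15, adjusted p = 0.00974) fell in like measure. Each of these genes had lower levels in all 3 ND libraries than in all 3 NS libraries. The count of falls was 8 with the offsets, 23 without pair 1, 0 without pair 2, 1 without pair 3 and 0 in the fit without the replicate block, with medians of -0.27 to -0.46. With the offsets 6 of the 13 falls were called again, and Cox6a1 and Cox8a were among those lost (adjusted p = 0.107 to 0.251).

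Of 25 tested glycolytic genes 6 fell and 2 rose (median -0.21). Hk2, a hexokinase, had 268, 172 and 177 CPM in ND, against 496, 356 and 359 CPM in NS (-0.99 ± 0.15 on the log2 scale, adjusted p = 0.000335). The ND and NS libraries were separate, and the call was made in each fit with a pair left out. Pfkp, a phosphofructokinase (-0.88 ± 0.15, adjusted p = 0.00135), Pfkfb3, which makes its activator (-0.76 ± 0.21, adjusted p = 0.0228), the glucose transporter gene Slc2a3 (-0.64 ± 0.15, adjusted p = 0.0138) and Gapdh (-0.52 ± 0.15, adjusted p = 0.0371) fell. Those 4 calls depended on pair 2 (adjusted p = 0.0671 to 0.288). Slc2a3, Pfkfb3 and Gapdh were also lost without pair 3 (adjusted p = 0.0953 to 0.356), and Pfkp was not. The kinase gene Pdk1 rose narrowly, with 142, 117 and 105 CPM in ND, against 142, 44.3 and 56.5 CPM in NS (adjusted p = 0.0491), and its NS replicate 1 equalled the highest ND library. The rise was not called without pair 2, without pair 3 or with the offsets (adjusted p = 0.202 with them).

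In the fatty acid oxidation and lipid droplet list 5 of 25 tested genes fell and none rose (median -0.25). Fabp3, a fatty acid binding protein, had 108, 89.5 and 245 CPM in ND, against 183, 318 and 727 CPM in NS (-1.39 ± 0.19 on the log2 scale, adjusted p = 0.00027). Its groups overlapped across replicate numbers but not within pairs. Etfb, a subunit of the electron transfer flavoprotein, had 108, 151 and 169 CPM in ND, against 270, 254 and 325 CPM in NS (-1.01 ± 0.16 on the log2 scale, adjusted p = 0.000625), and both genes were called in each fit with a pair left out. Cidea, a lipid droplet protein, had 2.14, 3.17 and 1.73 CPM in ND, against 5.96, 21.2 and 22.6 CPM in NS (-2.72 ± 0.45 on the log2 scale, adjusted p = 0.000875). Fabp5 (-0.86 ± 0.22, adjusted p = 0.0171) and the thiolase gene Acaa2 (-0.72 ± 0.19, adjusted p = 0.0218) also fell. The last 3 were lost without pair 2 (adjusted p = 0.0568 to 0.209), and Acaa2 with the offsets (adjusted p = 0.0576). Of 26 tested genes of cholesterol and fatty acid synthesis none passed in either direction with edgeR (median -0.15), 4 had an unadjusted p under 0.05, and 1 was called with DESeq2. The smallest adjusted p was that of Mvd, 0.0538, followed by 0.0593 for Scd2.

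The integrated stress response list, which covers targets of Atf4 and enzymes of amino acid synthesis, had 7 falls and 1 rise among 29 tested genes (median -0.32). Ddit3, the stress factor Chop, had 17.1, 13.7 and 38.7 CPM in ND, against 31.8, 63.7 and 178 CPM in NS (-1.82 ± 0.25 on the log2 scale, adjusted p = 0.00036). The groups overlapped, since replicate 3 was the highest in both, and each ND library lay below its own NS partner. Asns, asparagine synthetase, had 280, 198 and 238 CPM in ND, against 459, 387 and 470 CPM in NS (-0.89 ± 0.15 on the log2 scale, adjusted p = 0.000853). Nupr1, a stress-induced chromatin protein (-1.6 ± 0.27, adjusted p = 0.00119), the folate enzyme Mthfd2 (-0.89 ± 0.16, adjusted p = 0.00195) and Atf4 itself (-0.61 ± 0.14, adjusted p = 0.0117) fell. Ddit3 was called in each fit with a pair left out, and the others were lost without pair 2 (adjusted p = 0.0648 to 0.124). The exception was Vldlr, a lipoprotein receptor, with 14.4, 10.3 and 12.7 CPM in ND, against 6.62, 3.54 and 0.737 CPM in NS (1.97 ± 0.48 on the log2 scale, adjusted p = 0.0155; adjusted p = 0.107 without pair 2).

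Threonine, glycine and one-carbon genes gave 5 falls and 1 rise among 18 tested (median -0.26). Tdh, threonine dehydrogenase, on which mouse embryonic stem cells depend for glycine and acetyl-CoA, had 186, 113 and 115 CPM in ND, against 355, 197 and 236 CPM in NS (-0.92 ± 0.15 on the log2 scale, adjusted p = 0.000875). It was lower in ND in every pair and in each fit with a pair left out. Cth (-0.95 ± 0.26, adjusted p = 0.0245), Shmt1 (-0.57 ± 0.17, adjusted p = 0.0345) and the spermidine synthase gene Srm (-0.59 ± 0.15, adjusted p = 0.0175) fell. Mat2a, which makes S-adenosylmethionine, rose, with 288, 322 and 163 CPM in ND, against 203, 169 and 79.6 CPM in NS (0.82 ± 0.16 on the log2 scale, adjusted p = 0.00311), and its groups overlapped. Those 4 were lost without pair 2 (adjusted p = 0.124 to 0.314), and Srm with the offsets (adjusted p = 0.0786).

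Transporter genes fell at 6 of 21 tested and rose at 2 (median -0.13). Aqp3, a channel for water and glycerol, had 1.56, 1.67 and 1.73 CPM in ND, against 6.62, 24 and 32.9 CPM in NS (-3.54 ± 0.44 on the log2 scale, adjusted p = 8.22e-05), the largest fall by the naming rule. All ND libraries lay under 2 CPM, and the call was made in each fit with a pair left out. The nucleoside transporter gene Slc29a1 had 78.8, 61 and 60 CPM in ND, against 134, 129 and 129 CPM in NS (-0.99 ± 0.17 on the log2 scale, adjusted p = 0.00128). Slc7a1, for cationic amino acids (-0.94 ± 0.21, adjusted p = 0.00803), and Slc38a4, for neutral amino acids (-0.57 ± 0.16, adjusted p = 0.0286), fell, and the chloride cotransporter gene Slc12a2 rose (0.75 ± 0.22, adjusted p = 0.0337). These 4 were lost without pair 2 (adjusted p = 0.0789 to 0.289), and Slc12a2 with the offsets (adjusted p = 0.195).

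Redox genes changed in both directions. Of 24 tested NRF2 and glutathione genes 5 fell and 3 rose (median -0.09). Sod1, the cytosolic superoxide dismutase, had 1410, 1570 and 1710 CPM in ND, against 2130, 2610 and 3390 CPM in NS (-0.77 ± 0.13 on the log2 scale, adjusted p = 0.000875), and the mitochondrial Sod2 had 105, 82.3 and 85.8 CPM in ND, against 146, 226 and 270 CPM in NS (-1.21 ± 0.2 on the log2 scale, adjusted p = 0.00189). Glutathione peroxidases fell, with 262, 256 and 400 CPM in ND, against 458, 599 and 670 CPM in NS for Gpx1 (-0.93 ± 0.15 on the log2 scale, adjusted p = 0.00066) and a log2 fold change of -1.17 ± 0.2 SE for Gpx4 (adjusted p = 0.000954). The transferase gene Gsta4 fell (-0.72 ± 0.15, adjusted p = 0.00512). No ND library of these genes reached an NS library. The 3 rises were both subunits of glutamate-cysteine ligase, Gclc (0.63 ± 0.19, adjusted p = 0.0348) and Gclm (0.73 ± 0.18, adjusted p = 0.0181), and thioredoxin reductase, Txnrd1 (0.55 ± 0.14, adjusted p = 0.0211), and none of them was called without pair 2 or without pair 3. Gclm was also lost with the offsets (adjusted p = 0.229). Sod1 was called in each fit with a pair left out, and Sod2, Gpx1, Gpx4 and Gsta4 were lost without pair 2 (adjusted p = 0.0762 to 0.167).

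The interferon and antigen presentation list held changes both ways, 5 rises and 3 falls among 22 tested (median 0.40). The 3 falls were members of 1 family of interferon-induced membrane proteins. Ifitm1 had 237, 156 and 210 CPM in ND, against 468, 451 and 504 CPM in NS (-1.26 ± 0.15 on the log2 scale, adjusted p = 5.25e-05), Ifitm2 a log2 fold change of -0.85 (adjusted p = 0.00164) and Ifitm3 one of -0.66 (adjusted p = 0.013). The family members are similar in sequence, so that the counts of each are uncertain. Rises were found for the antiviral gene Rsad2, with 10.3, 5.5 and 10.5 CPM in ND, against 2.65, 1.77 and 1.47 CPM in NS (2.13 ± 0.5 on the log2 scale, adjusted p = 0.0111), and for Ifit1 (2.69 ± 0.7, adjusted p = 0.0187), Oasl2 (1.12 ± 0.36, adjusted p = 0.0481), the immunoproteasome gene Psmb8 (0.99 ± 0.28, adjusted p = 0.0382) and the peptide-loading gene Tapbp (0.76 ± 0.17, adjusted p = 0.00989). Ifitm1 was called in each fit with a pair left out, Ifitm2, Ifitm3, Rsad2 and Tapbp were lost without pair 2 (adjusted p = 0.0736 to 0.209), and Ifitm3 with the offsets (adjusted p = 0.171). None of the 5 rises was called without pair 2 or without pair 3.

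In the heat shock and chaperone list 2 of 25 tested genes fell (8%) and 1 rose (4%), shares near those of all tested genes (5.21% and 5.36%; list median -0.20). The small heat shock gene Hspb1 had 85.9, 73 and 101 CPM in ND, against 153, 331 and 319 CPM in NS (-1.56 ± 0.22 on the log2 scale, adjusted p = 0.000853), without overlap and in each fit with a pair left out. Sdf2l1, of the endoplasmic reticulum, fell (-0.88 ± 0.2, adjusted p = 0.0101; adjusted p = 0.0943 without pair 2), and Dnaja1 rose (0.58 ± 0.18, adjusted p = 0.0389) but not with the offsets (adjusted p = 0.439) or without any one of the pairs. In the lysosome and autophagy list 4 of 30 tested genes fell and 2 rose (median -0.17). The membrane protein gene Lamp1 had 353, 376 and 515 CPM in ND, against 579, 530 and 788 CPM in NS (-0.61 ± 0.14 on the log2 scale, adjusted p = 0.00907). Gabarapl2, of autophagosome formation (-1.2 ± 0.27, adjusted p = 0.0152), and the kinase gene Ulk1 (-0.64 ± 0.18, adjusted p = 0.0306) fell, while the protease gene Ctsc (0.91 ± 0.25, adjusted p = 0.0249) and the cholesterol exporter gene Npc1 (1.3 ± 0.34, adjusted p = 0.0366) rose. All 5 were lost without pair 2 (adjusted p = 0.118 to 0.319), and Ctsc and Npc1 with the offsets (adjusted p = 0.0847 to 0.0963).

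Cell cycle genes and p53 targets were called at 3 members of each of their lists. Of 20 tested CDK inhibitors, cyclins and G1 regulators 2 fell (10%, against 5.21% of all tested genes) and 1 rose (5%, against 5.36%). Cdkn1a, the inhibitor p21, had 221, 242 and 306 CPM in ND, against 337, 378 and 452 CPM in NS (-0.61 ± 0.14 on the log2 scale, adjusted p = 0.0113), Cdkn2a fell (-1.18 ± 0.25, adjusted p = 0.00693), and the E2F factor gene E2f4 rose (0.73 ± 0.23, adjusted p = 0.0475). Ccnd2, cyclin D2, had 49, 61.8 and 62 CPM in ND, against 35.1, 41.5 and 12.3 CPM in NS and just missed the threshold (adjusted p = 0.0541). In the DNA replication list 3 of 28 tested genes fell (10.7%), which were Rrm2, a ribonucleotide reductase subunit (-0.87 ± 0.22, adjusted p = 0.021), Cdc45, of the replicative helicase (-0.75 ± 0.21, adjusted p = 0.026), and Mcm5 (-0.48 ± 0.15, adjusted p = 0.0401). In the mitosis list 3 of 27 tested genes rose (11.1%), the kinetochore motor gene Cenpe (0.84 ± 0.17, adjusted p = 0.00368), Mki67 (0.61 ± 0.16, adjusted p = 0.0168) and Cenpf (0.52 ± 0.14, adjusted p = 0.0275). With the length and GC offsets none of the mitosis genes was called (adjusted p = 0.0595 to 0.915 for these). In the p53 list 2 of 20 tested genes rose, where 5.36% of all tested genes did, Trp53inp1 (0.61 ± 0.15, adjusted p = 0.0142) and Ccng1 (0.47 ± 0.14, adjusted p = 0.0441). Trp53 itself fell (-0.62 ± 0.19, adjusted p = 0.0408). Both rises were lost with the offsets (adjusted p = 0.372 to 0.375). Cdkn1a, a p53 target that is counted with the CDK inhibitors above, fell, so that called targets went both ways. None of the calls in these 4 lists was made without pair 2 (adjusted p = 0.0556 to 0.398).

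Cytosolic ribosomal protein genes fell at 17 of 80 tested and rose at none (median -0.30). Their share of all counts was 12.8, 12.9 and 15.3% in ND, against 14.9, 14.1 and 17.9% in NS, lower in ND in every pair. Rps29 had 1560, 2110 and 2810 CPM in ND, against 2910, 3000 and 3920 CPM in NS (-0.63 ± 0.13 on the log2 scale, adjusted p = 0.00405), and Rps14 had 3000, 4840 and 6420 CPM in ND, against 6210, 6250 and 8170 CPM in NS (-0.59 ± 0.14 on the log2 scale, adjusted p = 0.0123). The groups of Rps14 overlapped across replicate numbers. The testis-type paralogs Rpl10l (-1.59 ± 0.23, adjusted p = 0.000327) and Rpl39l (-1.22 ± 0.2, adjusted p = 0.00142) had the largest falls, and reads may be shared with their parent genes. Falls numbered 10 with the offsets, 27 without pair 1, 1 without pair 2, 4 without pair 3 and 0 in the fit without the replicate block, with medians of -0.12 to -0.39. With the offsets 5 of the 17 falls were called again. Rps29, Rps14 and Rplp2 (-0.49 ± 0.12, adjusted p = 0.0155) were among those lost (adjusted p = 0.157 to 0.337 with the offsets). Of 28 tested ribosome biogenesis genes 2 fell (7.14%, near the 5.21% of all tested genes), Rrp9 (-0.77 ± 0.17, adjusted p = 0.00657) and Bop1 (-0.68 ± 0.22, adjusted p = 0.0461), both lost without pair 2 (adjusted p = 0.15 to 0.349) and Bop1 also with the offsets (adjusted p = 0.0576), and the median was -0.03.

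Several genes with the largest changes or the smallest p stand in none of the paragraphs above. Among the largest rises Kcnj3, a potassium channel subunit, had 28.6, 21.3 and 17.9 CPM in ND, against 11.3, 3.79 and 0.491 CPM in NS (2.47 ± 0.48 on the log2 scale, adjusted p = 0.00692), and Pdlim3, a LIM protein of the actin cytoskeleton, had 21.6, 35.3 and 36.6 CPM in ND, against 11.6, 4.05 and 3.93 CPM in NS (2.35 ± 0.42 on the log2 scale, adjusted p = 0.00432). Ppp4r4, a regulatory subunit of protein phosphatase 4, had 22.2, 21 and 22.3 CPM in ND, against 7.61, 4.05 and 2.46 CPM in NS (2.31 ± 0.36 on the log2 scale, adjusted p = 0.000625). These groups were separate, and in fold terms the ND libraries lay closer together than the NS libraries. Pphln1, periphilin, of the HUSH silencing complex, had 220, 315 and 209 CPM in ND, against 93.4, 44.5 and 35.1 CPM in NS (2.2 ± 0.29 on the log2 scale, adjusted p = 0.00248). Trim56, a ubiquitin ligase of innate immunity, had 15.4, 20.8 and 19.1 CPM in ND, against 4.63, 5.57 and 3.19 CPM in NS (2.06 ± 0.36 on the log2 scale, adjusted p = 0.00123). The chemokine gene Cxcl12 (2.19 ± 0.53, adjusted p = 0.0159), the HMG-box gene Tox3 (2.12 ± 0.39, adjusted p = 0.00189), the transcription factor gene Myb (2.07 ± 0.47, adjusted p = 0.0256), the retroelement-derived Ldoc1l (2.04 ± 0.47, adjusted p = 0.0102) and the insulin receptor substrate gene Irs4 (2.02 ± 0.44, adjusted p = 0.00674) rose as well. Ppp4r4, Pphln1 and Trim56 were called in each fit with a pair left out, the other 7 were lost without pair 2 (adjusted p = 0.0703 to 0.203), and Myb also with the offsets (adjusted p = 0.0618). In the fit to all 36 libraries with the block, Trim56 (adjusted p = 0.07), Cxcl12 (0.0558), Ldoc1l (0.0793) and Irs4 (0.0692) were not called.

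Among the largest falls Spink3, a trypsin inhibitor, had 2.92, 2.5 and 0.576 CPM in ND, against 9.6, 17.7 and 23.3 CPM in NS (-3.11 ± 0.54 on the log2 scale, adjusted p = 0.00267). Krt42, a keratin, had 7.39, 3.5 and 2.59 CPM in ND, against 23.5, 21.5 and 25.8 CPM in NS (-2.5 ± 0.36 on the log2 scale, adjusted p = 0.000294), and Hsd17b14, a steroid dehydrogenase, had 14.4, 11.8 and 7.77 CPM in ND, against 30.8, 58.2 and 66.8 CPM in NS (-2.18 ± 0.33 on the log2 scale, adjusted p = 0.000954). Cltb, a clathrin light chain, had 15, 11.8 and 9.36 CPM in ND, against 57.9, 46.8 and 50.9 CPM in NS (-2.12 ± 0.25 on the log2 scale, adjusted p = 3.39e-05). No ND library of these 4 reached an NS library, and all 4 calls were made in each fit with a pair left out. Mras, a Ras-related GTPase (-2.55 ± 0.44, adjusted p = 0.00151), Fam25c (-2.36 ± 0.43, adjusted p = 0.0196) and Aard (-2.17 ± 0.52, adjusted p = 0.0387) fell but were lost without pair 2 (adjusted p = 0.0512 to 0.147), and Aard with the offsets (adjusted p = 0.0916).

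**Figure D5:**
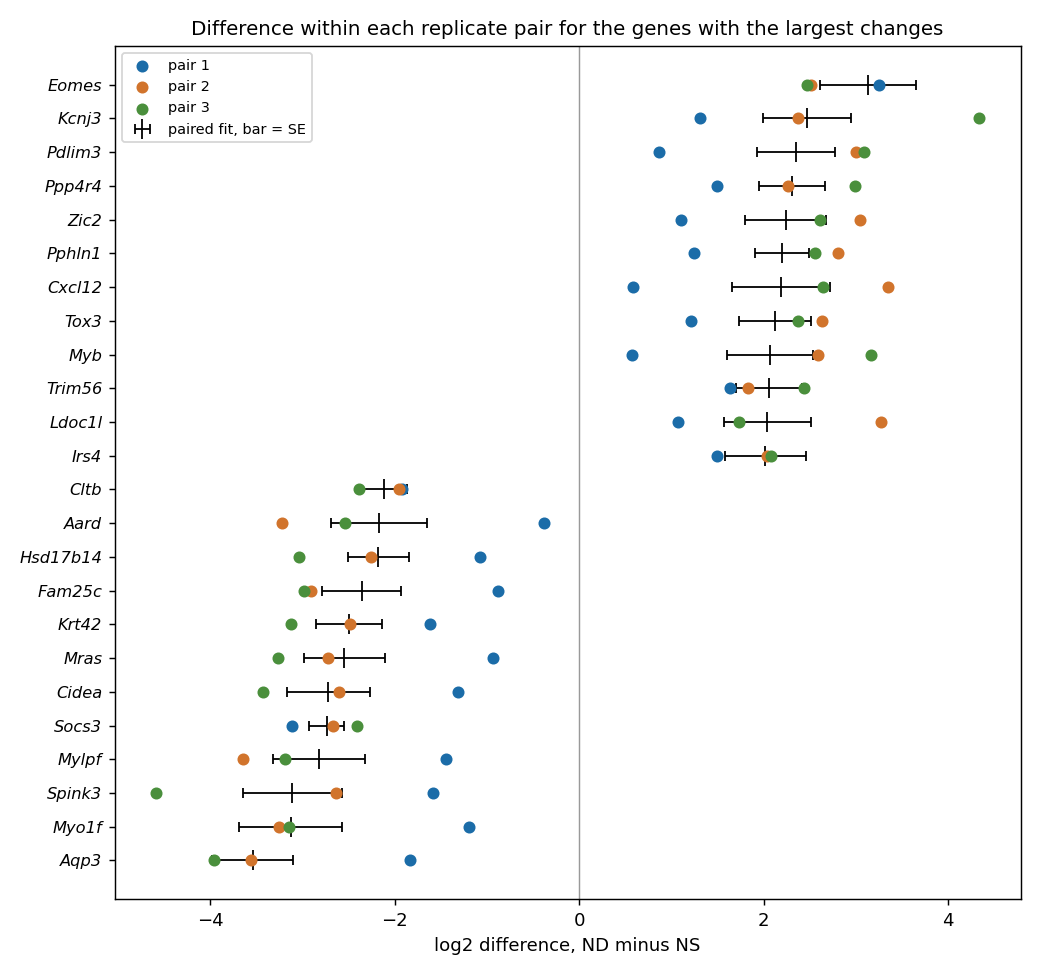
Log2 difference, ND minus NS, within each replicate pair (coloured points) and in the paired fit (black, bar = SE) for the 12 largest rises (top) and 12 largest falls (bottom) by the naming rule. At Socs3 the 3 pairs lie together near the fit of -2.74, and at Aqp3 pair 1 lies nearest to 0.

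The smaller changes with the smallest p included genes of transport and gene regulation. G2e3, a ubiquitin ligase, had 181, 382 and 220 CPM in ND, against 89.4, 156 and 87.9 CPM in NS (1.21 ± 0.16 on the log2 scale, adjusted p = 0.000104), and Zmynd8, a reader of histone marks, had 321, 321 and 257 CPM in ND, against 186, 121 and 106 CPM in NS (1.16 ± 0.16 on the log2 scale, adjusted p = 0.000229). Ktn1, the kinesin anchor kinectin, had 622, 790 and 631 CPM in ND, against 339, 422 and 253 CPM in NS (1.03 ± 0.15 on the log2 scale, adjusted p = 0.000229). All 3 rose in each pair, and their groups did not overlap. Kif1a, a kinesin motor of vesicle transport (1.52 ± 0.2, adjusted p = 0.000229), Rlim, the ubiquitin ligase that acts on Rex1 in X inactivation (1.19 ± 0.17, adjusted p = 0.000273), and the phosphoinositide adaptor gene Plekha1 (1.31 ± 0.19, adjusted p = 0.000337) rose. Falls were seen for Tubb2b, a beta-tubulin, with 165, 351 and 355 CPM in ND, against 527, 845 and 945 CPM in NS (-1.45 ± 0.14 on the log2 scale, adjusted p = 9.4e-06), and for Aes, a Groucho-family corepressor, with 29.4, 35.3 and 60.5 CPM in ND, against 68.2, 157 and 212 CPM in NS (-1.74 ± 0.2 on the log2 scale, adjusted p = 2.82e-05). Ckb, the brain-type creatine kinase, had 207, 158 and 212 CPM in ND, against 411, 565 and 605 CPM in NS (-1.45 ± 0.17 on the log2 scale, adjusted p = 3.39e-05). For Tubb2b and Aes replicate 1 was the lowest in both groups. All 9 genes of this paragraph were called in each fit with a pair left out and with the offsets. In the 6 libraries without the replicate block G2e3, Kif1a, Tubb2b and Aes were not called (adjusted p = 0.052 to 0.074). In the fit to all 36 libraries without the block G2e3, Ktn1, Rlim and Ckb were not called. G2e3 was also lost in the 36 libraries with the block (adjusted p = 0.131). Beta-tubulin genes resemble each other, so that the counts of Tubb2b are uncertain.

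The ND and NS levels of the 24 largest changes were set beside those of the 24 libraries that kept LIF and received BP, cortisol, DEP or PFOA, all on TMM-scaled totals of the 36 libraries. At 7 of the 24 genes every ND library lay outside the range of those 24 libraries, and at 13 every NS library lay within it. Socs3 was at 24.8 to 34.6 CPM in ND, against 65.9 to 267 CPM with a toxicant and 161 to 235 CPM in NS. Of the smaller changes, Chchd10 was at 768 to 1050 CPM in ND, against 1260 to 3740 CPM with a toxicant and 1710 to 2930 CPM in NS. At both genes ND lay below every NS library and every library of these toxicants. Aqp3 was at 1.57 to 1.73 CPM in ND, within the toxicant range of 1.34 to 32.4 CPM, and at 6.65 to 33.3 CPM in NS. Eomes was at 4.62 to 16.3 CPM in ND, overlapping the toxicant range of 0.477 to 6.55 CPM, and at 0.497 to 1.72 CPM in NS. In the 3 libraries that received 1 uM retinoic acid without LIF, Chchd10 was at 82.9 to 192 CPM, below ND. Socs3 was at 69.7 to 158 CPM there, above ND. These ranges did not overlap those of ND, and the difference was not tested.

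In the authors' deposited table of this comparison 257 genes had an FDR under 0.05. Of these 237 were tested in the paired fit and 222 were called, all in the same direction, which is 86.4% of the authors' genes and 17.9% of those called here. Without the block by replicate number 60 genes rose and 134 fell in the 6 libraries.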

How the data were processed

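The values deposited by the authors are raw counts of reads for each gene. The authors' log2 fold change and FDR, an adjusted p-value, stand in the same table per the file headers, and only counts of genes are printed from them. The submitters' processing notes name CASAVA 1.8.2, STAR, HTSeq, edgeR and build mm9; which annotation, strand and settings served is not given in the sources used here.

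Genes were kept by filterByExpr, libraries scaled by TMM, and 6 libraries fitted with replicate number and group as terms in edgeR 4.0.16 (R 4.3.3; glmQLFit, robust; common biological coefficient of variation 0.21, 2 residual degrees of freedom, median prior degrees of freedom 18.3). Adjusted p-values are Benjamini-Hochberg over 11717 genes, with a threshold of 0.05. The SE is the log2 fold change over the square root of F. The numbers were taken as pairing the libraries because deviations from group means correlated at 0.29, 0.22 and 0.20 within same-numbered pairs, all over 0.1, decided before calls were compared. Replicates differed by more than counting error, and 3 counts equal 0.44 to 0.99 CPM, which covers counting error only. P-values rest on the spread that remains within pairs after the replicate block, moderated over all genes. They do not measure the full spread between these cultures. Gadd45g, for example, had an adjusted p of 4.76e-05 with the block and 0.268 without it in the 6 libraries. Fabp3 (adjusted p = 0.251), Tdgf1 (0.207) and Ddit3 (0.197) were not called without the block either.

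Named genes were the 12 largest rises and 12 largest falls, the 8 smallest p each way (all pairs the same way, at least 10 CPM in the higher group, no predicted-gene or clone name, no naive gene), up to 5 members of each of 43 lists by p, and list members over 8-fold apart in NS. Other list members named were chosen after their values were seen. A list member that the rule names is not reported here. The comparison, the members and the lists were chosen with earlier results of these data known. Symbols are those of the tables. Lengths and GC content are those of the longest GENCODE M21 transcript of each gene, and promoter windows come from RefSeq on GRCm38.p6. Alternatives used limma 3.58.1 (voom) and DESeq2 1.42.0. The fit was also run on counts simulated from its own estimates and design. Such a run checks the code, and it cannot test the replicate block or the spread of the NS libraries.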

Additional observations from a re-analysis of the deposited data

How the results depend on the processing

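Under 14 alternative settings 0 of the named genes that passed turned direction, 8 of the 76 that did not pass turned under at least 1 setting, and over all calls 1 turned, Dst with the length and GC offsets. Without the replicate block 60 genes rose and 134 fell in the 6 libraries, and in fits to all 36 libraries 212 rose and 340 fell with the replicate block, 35 and 126 with no replicate block. Leaving out a pair gave 32 to 1168 rises and 63 to 1236 falls. Rises numbered 370 with the length and GC offsets (735 falls), 431 with DESeq2 (493 falls) and 934 with no filter on low counts (729 falls). The offsets and the thinning of ND libraries to NS totals (628 rises, 583 falls) were chosen after seeing the data. RLE size factors, voom, the stricter filter and the removal of ribosomal protein genes moved either count by less than 1.5 times. With 3 pairs and NS libraries this far apart, a gene that did not pass is not shown to be unchanged.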

Other observations

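Outside the rule for named genes, and chosen after its values were seen, Irs1, an insulin receptor substrate like Irs4, had 6.42, 8 and 8.49 CPM in the ND libraries and 0.662, 0.253 and 0 CPM in the NS libraries, and it was called higher in each fit with a pair left out. A fold change is not given, since NS replicate 3 had no count of it. Other genes called in all of these fits, also chosen after their values were seen, were Lpar6, a lysophosphatidic acid receptor (35.2, 52.5 and 39.6 CPM in ND, 16.6, 14.9 and 4.18 CPM in NS), and Arl4c, a small GTPase (150, 172 and 169 CPM in ND, 87.1, 51.6 and 44 CPM in NS), which rose. Aurkc, a kinase of meiosis, fell (12.6, 18.7 and 21 CPM in ND, 24.5, 89 and 101 CPM in NS), as did the tetraspanin gene Cd9 (72.5, 57 and 63.5 CPM in ND, 124, 133 and 182 CPM in NS) and Chchd2, the mitochondrial relative of Chchd10 (1490, 1850 and 1920 CPM in ND, 2580, 2820 and 3860 CPM in NS).

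Other motifs searched in the promoter windows, on both strands, were GGAATG of TEAD factors, TGATGNAA of Atf4, GTCTAGAC of Smad factors and the NRF1 palindrome. GGAATG stood in 13.5% of windows of genes that fell, 11% of those that rose and 11.6% of those tested, and TGATGNAA in 3.38, 1.6 and 2.15%. GTCTAGAC stood in 0, 0 and 0.266%. The NRF1 palindrome stood in 2.74, 1.8 and 2.16%. Windows of genes that rose had a median GC content of 64.0%, those of genes that fell 60.7% and those tested 61.3%.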
